A study of Mus musculus with 8 samples.

Results

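Mitochondrial ribosomal proteins are encoded in the nucleus, made in the cytosol and imported into mitochondria, where they assemble with mitochondrially encoded RNA into a large and a small subunit. The small subunit holds the messenger RNA and reads its codons, and the large subunit joins the amino acids. This ribosome translates the respiratory chain subunits encoded by mitochondrial DNA, on which a slow, oxidative muscle such as the soleus depends. The genes were taken from the deposited gene matrix by symbol, as rows named Mrpl or Mrps followed by a digit, with a mean of at least 1 FPKM (mapped fragments scaled to transcript length and library size) over the 8 libraries. Of 81 rows with such a name, 80 reached that mean, of 24033 rows in all. By the place of the protein in the mammalian mitoribosome, 49 encode large subunit proteins and 26 small subunit proteins, 1 (Mrps36) encodes a protein of neither subunit, and 4 are annotated pseudogenes.

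RNA sequencing was done on soleus muscle of 2-month-old mice. The K15-SKO mice carried Myogenin-Cre/+ and K15F/F, a floxed Klf15 on both chromosomes, and gave 4 libraries. The MyoCre mice carried Myogenin-Cre/+ and also gave 4 libraries, so that both groups carried the Cre driver and only K15-SKO the floxed gene. Myogenin is switched on as myoblasts differentiate, so the deletion is directed to muscle cells and leaves the vessel, nerve, matrix and blood cells of the muscle. Klf15, a zinc-finger transcription factor of the Krüppel-like family that acts on lipid, amino acid and glucose use, is the deleted gene. It measured 15.7, 19.3, 16.7 and 13.1 FPKM in K15-SKO muscle and 44.5, 49.8, 49.1 and 22.8 FPKM in MyoCre muscle, which left 38.9% of the MyoCre mean (log2 fold change -1.28, limma adjusted p = 0.0315, n = 4 each).

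Some libraries stood apart from the others. In K15-SKO replicate 3 the abundant noncoding RNA Rn7sk made up 14.1% of all FPKM, where it made up 8.67% to 10.5% elsewhere, and its median-of-ratios scaling factor was 0.797, against 0.955 to 1.16. MyoCre replicate 2 was the library without Xist (0.0103 FPKM, against at least 20.998 FPKM in the others) and with Ddx3y (23.0 FPKM, against 0). The depth was estimated from the lowest values of genes with a single transcript over 1 kb. Their most common product of FPKM and length was taken as a single fragment. This gave 8130000 to 22400000 fragments per library. Summed muscle markers were 15862 to 28260 FPKM in K15-SKO and 14661 to 25329 FPKM in MyoCre libraries, with none of 9 at 0. Summed erythroid markers were 320.3 to 2034 FPKM in K15-SKO and 284.0 to 458.9 FPKM in MyoCre libraries. The top value came from K15-SKO replicate 3. There the hemoglobin gene Hbb-bs had 1265 FPKM, against 215.0, 365.3 and 226.9 FPKM in the other K15-SKO libraries. Summed fibroblast markers were 379.1 to 660.2 FPKM in K15-SKO and 508.9 to 905.5 FPKM in MyoCre libraries. Endothelial markers summed to 88.3 to 103.7 FPKM in K15-SKO and 69.6 to 94.5 FPKM in MyoCre libraries, macrophage markers to 5.91 to 12.1 FPKM in K15-SKO and 11.7 to 12.3 FPKM in MyoCre libraries, and fat cell markers to 2.996 to 12.2 FPKM in K15-SKO and 8.05 to 13.3 FPKM in MyoCre libraries. The part of these cells in the results below was not tested, and in whole muscle fewer cells of a type and less RNA per cell cannot be told apart.

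A symbol alone did not settle which of these genes is the source of a value, because several have near-identical copies. The pseudogene Mrpl23-ps1 was identical to the Mrpl23 transcript over 540 aligned bases, and Mrps36 differed from Mrps36-ps1 at 2 of 306 bases and from Mrps36-ps2 at 3 of 309 bases. The 90-base stretches here come from GENCODE M21 transcripts of the mouse GRCm38 build, in transcript sense, and capitals mark the bases at which the Mrps36 copies differ.
Mrpl23: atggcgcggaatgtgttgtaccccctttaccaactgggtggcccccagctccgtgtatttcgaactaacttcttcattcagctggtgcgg
Mrpl23-ps1: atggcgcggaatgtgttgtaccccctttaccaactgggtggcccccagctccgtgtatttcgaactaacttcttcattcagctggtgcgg
Mrps36: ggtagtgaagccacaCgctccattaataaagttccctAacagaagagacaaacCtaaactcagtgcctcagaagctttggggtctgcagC
Mrps36-ps1: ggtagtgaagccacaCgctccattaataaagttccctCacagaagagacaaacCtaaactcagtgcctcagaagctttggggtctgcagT
Mrps36-ps2: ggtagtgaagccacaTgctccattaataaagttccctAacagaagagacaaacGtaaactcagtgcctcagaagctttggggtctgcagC

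Mrpl23, a protein of the large subunit at the mouth of the peptide exit tunnel, was the matching row outside the mean of 1. It was listed at 0.177, 0.548, 0 and 0.524 FPKM in K15-SKO libraries and at 0, 0.321, 0.282 and 0.111 FPKM in MyoCre libraries. Its intronless copy Mrpl23-ps1 measured 45.1, 55.9, 35.2 and 35.8 FPKM in K15-SKO and 44.6, 50.6, 46.0 and 33.0 FPKM in MyoCre muscle. The gene lies at chr7:142532686-142540747 on the plus strand and the pseudogene at chr2:74591330-74591909 on the minus strand. Reads from identical stretches cannot be assigned to either, so the level of Mrpl23 is uncertain and the copy's value is no evidence that the pseudogene is transcribed. At the other end of the rule, the lowest gene inside it was Mrps25 with a mean of 4.16 FPKM, well above the limit.

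The same holds for Mrps36, which was named as a small subunit protein and is now placed with the 2-oxoglutarate dehydrogenase complex of the tricarboxylic acid cycle. Mrps36 averaged 12.3 ± 4.13 FPKM in K15-SKO and 13.9 ± 1.15 FPKM in MyoCre muscle (SD, n = 4 each). Mrps36-ps1 had 23.0, 12.8, 7.18 and 17.2 FPKM in K15-SKO and 15.4, 15.4, 22.7 and 15.4 FPKM in MyoCre libraries, and Mrps36-ps2 11.2, 12.2, 8.40 and 22.2 FPKM in K15-SKO and 16.0, 10.04, 15.3 and 16.7 FPKM in MyoCre libraries. These 2 pseudogenes and Mrpl48-ps, which is 98.1% identical to Mrpl48 over 636 bases, had the largest spread between libraries of a genotype among the 80 genes, with SDs of 0.524, 0.463 and 0.451 on the log2 scale against a median of 0.265. The genotypes overlapped for each of them. Mrpl42, Mrpl27 and Mrps21 also have near-identical pseudogene copies with values in the deposited matrix, of 96.3%, 98.9% and 97.3% identity. The copy of Mrps21 averaged 0.098 FPKM. Mrpl22 and Mrps10 have copies of 97.1% and 97.8% identity without a value there. The levels of all these genes are uncertain in the same way.

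The 75 subunit genes that the rule admitted covered a wide range of levels. These ran between 4.16 FPKM for Mrps25 and 188.9 FPKM for Mrpl33, as means of the 8 libraries. Large subunit genes had a median of 24.96 FPKM in K15-SKO and 28.1 FPKM in MyoCre muscle, and small subunit genes 18.3 FPKM in K15-SKO and 20.6 FPKM in MyoCre muscle. FPKM is a value per length, so these levels may be set side by side only roughly, and they describe RNA and not protein. Shorter transcripts had higher FPKM among the 76 coding genes (Spearman's rho -0.53 and Pearson's r of log values -0.57 across genes, which share the libraries; -0.11 and -0.21 over 12497 genes), a relation that the length correction of FPKM can itself affect.

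The highest level belonged to Mrpl33, a small protein of the large subunit, with 201.3, 222.4, 138.6 and 173.0 FPKM in K15-SKO and 184.9, 180.2, 215.5 and 194.8 FPKM in MyoCre libraries. Mrpl42, a protein without a bacterial counterpart whose level may include reads of its copy, had 166.9, 184.1, 138.0 and 159.6 FPKM in K15-SKO and 163.9, 180.5, 206.4 and 165.9 FPKM in MyoCre libraries. In both genes the lowest value was that of K15-SKO replicate 3, and the genotypes overlapped. Mrpl30 followed with 98.6 ± 21.6 FPKM in K15-SKO and 107.7 ± 4.02 FPKM in MyoCre muscle, the small subunit gene Mrps21 with 86.8 ± 12.4 FPKM in K15-SKO and 92.3 ± 11.5 FPKM in MyoCre muscle, and Mrpl54 with 75.4 ± 8.84 FPKM in K15-SKO and 76.6 ± 11.7 FPKM in MyoCre muscle (SD, n = 4 each). Among these 5 genes, Mrpl33 and Mrpl42 did not differ beyond their spread, and both lay above the other 3 in every library. The level of Mrps21 is uncertain through its copy.

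At the low end stood Mrps25, Mrpl19, Mrps26, Mrps33 and Mrps35, of which 4 belong to the small subunit. Mrps25 averaged 3.82 ± 1.22 FPKM in K15-SKO and 4.51 ± 0.678 FPKM in MyoCre muscle, Mrpl19 4.44 ± 1.04 FPKM in K15-SKO and 5.33 ± 0.948 FPKM in MyoCre, and Mrps26 5.31 ± 1.37 FPKM in K15-SKO and 5.47 ± 0.841 FPKM in MyoCre muscle (SD, n = 4 each). Mrps33 averaged 5.24 ± 1.72 FPKM in K15-SKO and 6.07 ± 0.672 FPKM in MyoCre. Neighbours in this order did not differ beyond their spread.

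**Figure D1:**
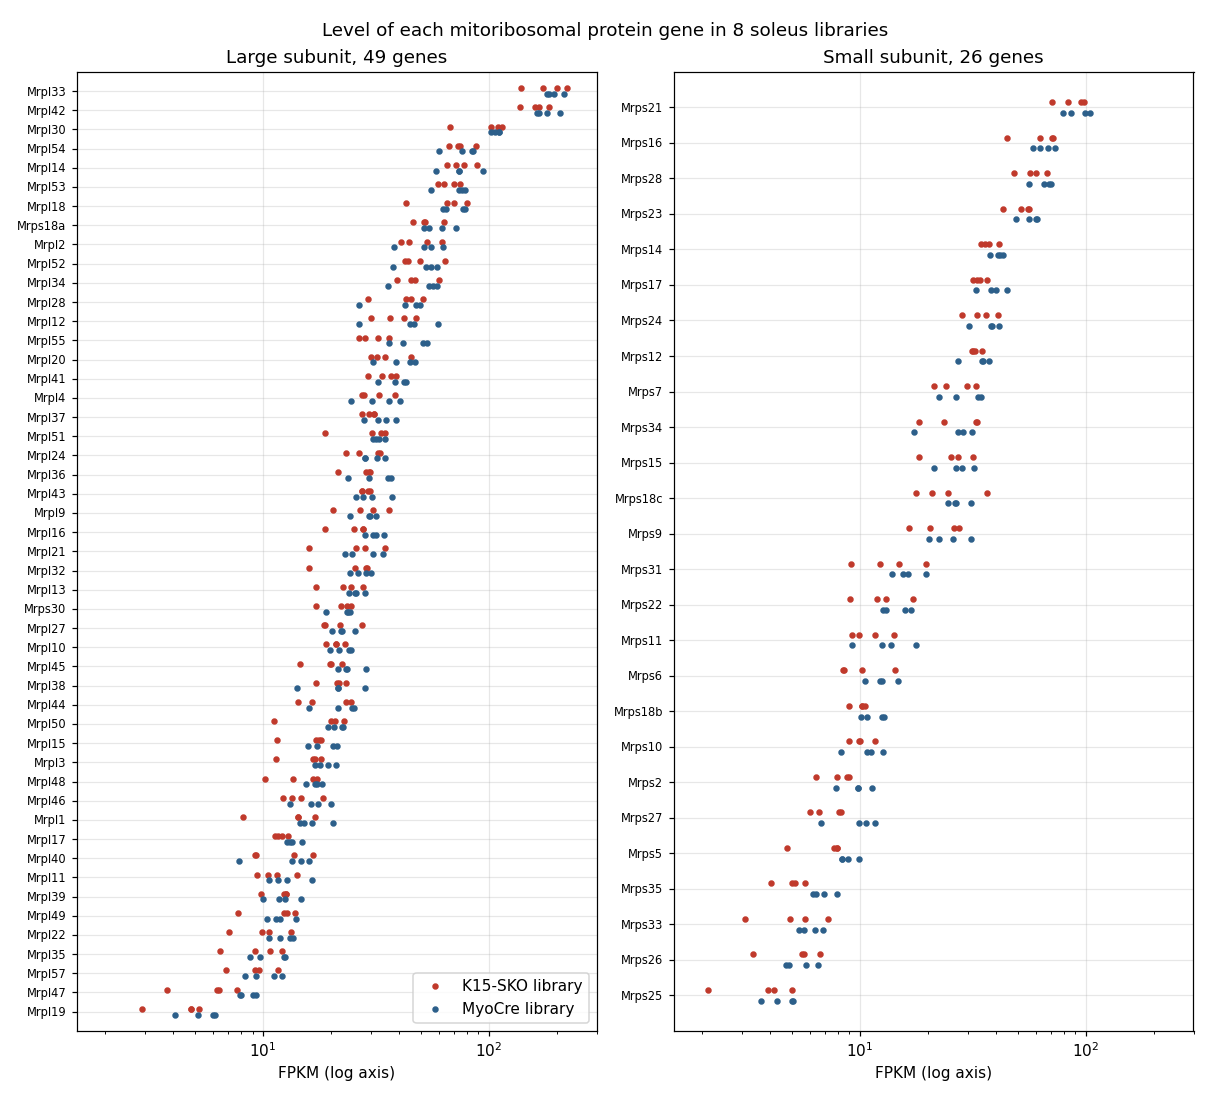
FPKM of each of the 49 large and 26 small subunit genes (log axis), 1 dot per library, with K15-SKO in red above MyoCre in blue and the genes ordered by their mean. Levels run between 4.16 FPKM for Mrps25 and 188.9 FPKM for Mrpl33, and the genotypes overlap in all but 4 genes.

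The study asks what the loss of Klf15 in muscle does to its transcripts. For the mitochondrial ribosome, no gene passed the threshold: of the 80 genes 0 were lower and 0 higher in K15-SKO muscle (limma on log2(FPKM + 0.5), Benjamini-Hochberg adjusted p under 0.05 over 12535 genes). Over all genes tested, 0.183% were called lower and 0.367% higher. All 46 genes behind the higher share are listed at 0 in all 4 MyoCre libraries, and without genes listed at 0 in a whole genotype 12 genes were called lower and 0 higher. The smallest adjusted p of the 80 was 0.718. At an unadjusted p under 0.05, 3 of the 80 were lower and 0 higher, where 3.43% of all genes were lower and 0.901% higher. The count of lower genes was near that background.

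The small differences leaned the same way as those of the whole transcriptome. Of the 80 genes 76 (95%) had a negative log2 fold change (K15-SKO minus MyoCre), a larger share than the 77.0% of all genes tested. The median was -0.16 for the 80 genes and -0.12 for all. With median-of-ratios scaling, which set the median of all genes to 0.00, 48 of the 80 were negative. Relative to the median of all genes, which is the scale of every relative value given here, the 80 genes lay at -0.04. All 80 intervals (95%) stayed within a 2-fold change in either direction, as did 91.0% of all genes' intervals, and 42 of the 80 stayed within a 1.5-fold change. These intervals ran between -0.96 and 0.55 on the log2 scale over the 80 genes.

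The large and the small subunit had nearly the same median. The median log2 fold change was -0.16 over the 49 large subunit genes (relative value -0.03) and -0.17 over the 26 small subunit genes (relative value -0.04), a difference of 0.01. Negative values came from 46 large and 25 small subunit genes, and 30 large and 17 small subunit genes had relative values under 0. The 45 proteins classed as having a counterpart in the bacterial ribosome had a relative median of -0.04. The 30 classed as found in the mitochondrial ribosome alone had -0.03. Mrps18a and Mrps18b were put in the latter class and Mrps18c, of the same name family, in the former, so the division is not strict. Counts and medians over such lists carry no test here.

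**Figure D2:**
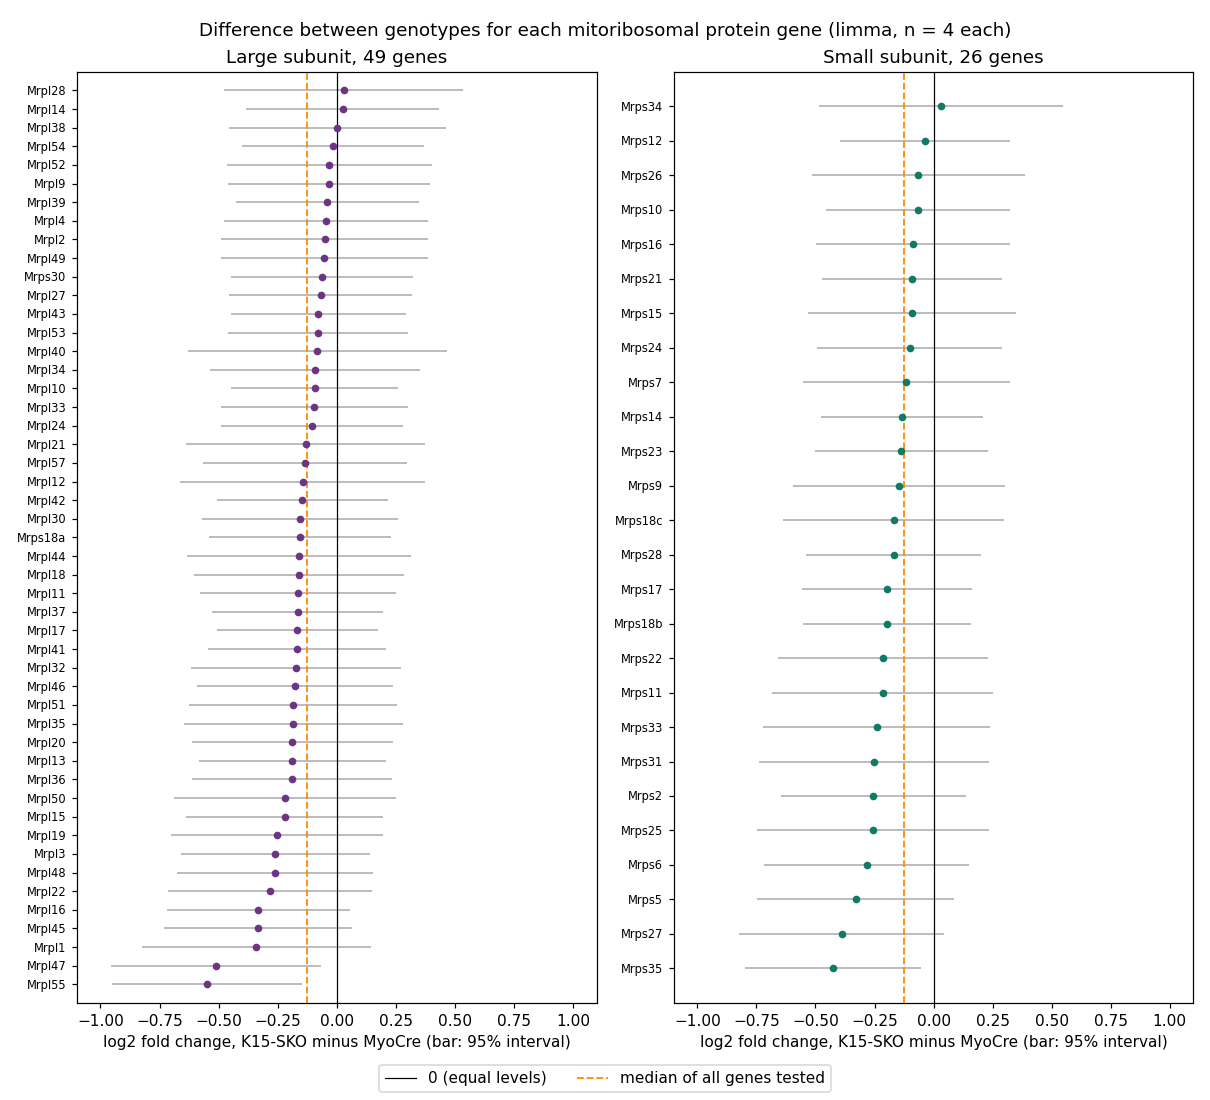
Log2 fold change of each large and small subunit gene, K15-SKO minus MyoCre, with its 95% interval from limma (n = 4 each). The dashed line marks the median of all genes tested, -0.12, and the points of both subunits lie around it, between -0.55 for Mrpl55 and 0.03 for Mrps34.

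Among the regions of the large subunit, the stalk and the central protuberance had medians near that of all genes and the exit tunnel a lower one. In the stalk, which recruits translation factors, Mrpl10, Mrpl11 and Mrpl12 had a relative median of -0.02. Mrpl12 had 42.2, 47.8, 36.6 and 30.2 FPKM in K15-SKO and 46.7, 59.3, 45.0 and 26.7 FPKM in MyoCre libraries, and the MyoCre values enclosed all 4 K15-SKO values. The 6 genes of the central protuberance, the part that faces the head of the small subunit, had a relative median of 0.00, and Mrpl38 there averaged 20.9 ± 2.60 FPKM in K15-SKO and 21.4 ± 5.80 FPKM in MyoCre muscle (SD, n = 4 each).

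At the peptide exit tunnel, where nascent respiratory chain proteins leave towards the inner membrane, 5 genes were measured (Mrpl17, Mrpl22, Mrpl24, Mrpl45 and Mrpl47). They had the lowest relative median of these regions, -0.16, with 1 of the 5 lower at an unadjusted p under 0.05, where 3.43% of all genes tested were. Single relative values ran between -0.39 for Mrpl47 and 0.02 for Mrpl24, so the median does not stand for each gene. Mrpl45, the protein that anchors the ribosome at the inner membrane, had 19.8, 22.4, 14.6 and 19.9 FPKM in K15-SKO and 21.4, 28.5, 23.2 and 23.5 FPKM in MyoCre libraries (log2 fold change -0.33, standard error 0.18, limma adjusted p = 0.957). All but 1 K15-SKO library lay below all MyoCre libraries. Mrpl24 averaged 28.8 ± 4.68 FPKM in K15-SKO and 30.8 ± 3.12 FPKM in MyoCre muscle (SD, n = 4 each), with a log2 fold change of -0.10.

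Mrpl47, also at the tunnel, was among the 4 genes whose libraries did not overlap. It had 6.23, 7.64, 3.78 and 6.41 FPKM in K15-SKO and 8.01, 9.02, 9.30 and 7.90 FPKM in MyoCre libraries. The log2 fold change was -0.51 with a standard error of 0.21 (relative value -0.39, limma adjusted p = 0.940, two-sided exact permutation p = 0.0286). That permutation p is the smallest that 4 against 4 libraries can give. Every gene without overlap has it by construction, so it adds nothing to the lack of overlap. Mrpl47 lies at chr3:32725397-32737605 (GRCm38, minus strand) and overlaps Actl6a and Ndufb5 on the other strand. Ndufb5, a complex I subunit with a mean of 420.4 FPKM, is far above it, and since the strand setting of the counting is not given, reads of these genes may not be told apart.

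The largest difference of the 80 was that of Mrpl55, a large subunit protein at chr11:59202486-59206134 on the plus strand. It had 32.3, 36.2, 28.2 and 26.6 FPKM in K15-SKO and 41.8, 53.4, 50.9 and 36.2 FPKM in MyoCre libraries. The highest K15-SKO library and the lowest MyoCre library were level, and the other libraries did not cross. The means were 30.8 ± 4.31 FPKM in K15-SKO and 45.6 ± 7.997 FPKM in MyoCre muscle (SD, n = 4 each), with a log2 fold change of -0.55 and an interval of -0.95 to -0.15 (limma adjusted p = 0.718, two-sided exact permutation p = 0.0571). The relative value was -0.43.

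Mrpl16, which sits near the peptidyl transferase centre of the large subunit, was the other large subunit gene without overlap. It had 25.3, 27.8, 18.9 and 27.8 FPKM in K15-SKO and 31.6, 30.8, 34.3 and 28.3 FPKM in MyoCre libraries (log2 fold change -0.33, limma adjusted p = 0.957). The closest libraries of the genotypes were less than 1 FPKM apart. In contrast Mrpl14, Mrpl28 and Mrpl38 were, with the small subunit gene Mrps34, the only genes of the 80 with a log2 fold change above 0, at 0.02, 0.03, 0.00 and 0.03. Mrpl14 had 78.0, 88.4, 71.3 and 65.5 FPKM in K15-SKO and 73.8, 94.6, 73.6 and 58.5 FPKM in MyoCre libraries, with full overlap.

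In the small subunit, 8 genes of the head, the part that swivels as the messenger moves, had a relative median of -0.02. Among them Mrps35 did not overlap, with 5.03, 5.74, 4.05 and 5.16 FPKM in K15-SKO and 6.40, 6.17, 7.90 and 6.97 FPKM in MyoCre libraries. Its log2 fold change was -0.43 with a standard error of 0.17 (relative value -0.30, limma adjusted p = 0.940, two-sided exact permutation p = 0.0286). Mrps12, the protein of the decoding centre, had 31.4, 31.6, 32.2 and 34.8 FPKM in K15-SKO and 37.2, 34.9, 34.7 and 27.3 FPKM in MyoCre libraries, and its log2 fold change was -0.04.

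Mrps5, a small subunit protein with a bacterial counterpart, was the last gene without overlap. It had 7.96, 7.89, 4.76 and 7.72 FPKM in K15-SKO and 8.36, 8.35, 9.95 and 8.85 FPKM in MyoCre libraries (log2 fold change -0.33, limma adjusted p = 0.957). K15-SKO replicate 3 was far below the other 3 K15-SKO libraries, which were within 1 FPKM of the nearest MyoCre library. Mrps27, a pentatricopeptide repeat protein found in the mitochondrial small subunit alone, had 8.24, 8.07, 6.57 and 6.02 FPKM in K15-SKO and 9.88, 11.6, 10.7 and 6.72 FPKM in MyoCre libraries (log2 fold change -0.39, limma adjusted p = 0.957). Its groups overlapped through MyoCre replicate 4. In all, 4 of the 80 genes had every K15-SKO library below every MyoCre library and 0 the reverse, where 2.72% and 0.63% of all genes tested did so.

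**Figure D3:**
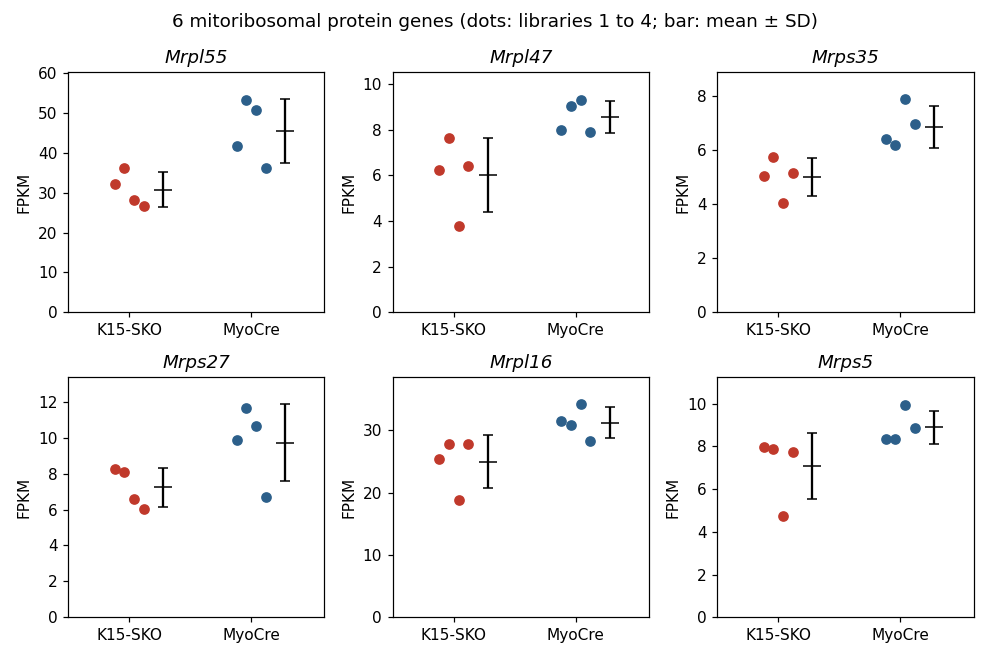
FPKM of Mrpl55, Mrpl47, Mrps35, Mrps27, Mrpl16 and Mrps5 in each library, with the mean and SD beside the dots (n = 4 each), K15-SKO left of MyoCre. All K15-SKO libraries lie below all MyoCre libraries in Mrpl47, Mrps35, Mrpl16 and Mrps5, and the lowest K15-SKO dot is replicate 3 in Mrpl47, Mrps35, Mrpl16 and Mrps5.

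Symbol and structure disagree for a pair of genes. Mrps30 and Mrps18a carry small subunit names and sit in the large subunit. Mrps30 averaged 21.8 ± 3.29 FPKM in K15-SKO and 22.6 ± 2.38 FPKM in MyoCre and Mrps18a 53.5 ± 7.21 FPKM in K15-SKO and 59.8 ± 8.96 FPKM in MyoCre muscle (SD, n = 4 each), with relative values of 0.06 and -0.03. With subunits assigned by symbol, the medians were -0.16 for the large and -0.17 for the small subunit.

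Both subunits moved together from library to library. The mean deviation of the large subunit genes from their mean over the 8 libraries was 0.00, 0.14, -0.37 and -0.09 (log2) in the K15-SKO libraries and 0.03, 0.17, 0.22 and -0.09 in the MyoCre libraries. For the small subunit genes it was 0.00, 0.16, -0.36 and -0.16 in the K15-SKO libraries and 0.08, 0.21, 0.17 and -0.11 in the MyoCre libraries. All genes tested moved in much the same order but less, with -0.26 in K15-SKO replicate 3 and 0.16 in MyoCre replicate 3. The large minus small difference stayed between -0.06 and 0.07 in every library.

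**Figure D4:**
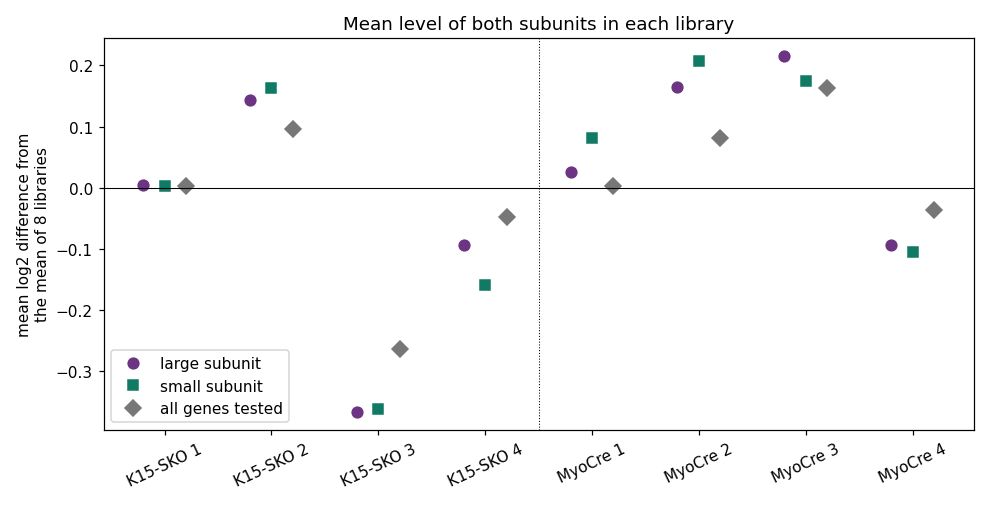
Mean log2 difference of the large subunit genes (circles), the small subunit genes (squares) and all genes tested (diamonds) from their mean over the 8 libraries, for each K15-SKO and MyoCre library. Both subunits move together, with K15-SKO 3 lowest at -0.37 and -0.36.

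K15-SKO replicate 3 had the lowest value for 52 of the 80 genes (65%), and for 47.3% of all genes tested. MyoCre replicate 4 was lowest for 16 and K15-SKO replicate 4 for 11. MyoCre replicates 3 and 2 were highest for 26 and 21 genes, and K15-SKO replicate 2 for 17. Without K15-SKO replicate 3, 56 of the 80 genes were negative and the median log2 fold change was -0.06, with a relative value of -0.03. Without MyoCre replicate 2, the library without Xist, the relative value was 0.00. None of the 80 passed in either case.

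Which genes were low in a library went with the base composition of their transcripts. Over the 76 coding genes, the deviation in K15-SKO replicate 3 had a Pearson's r of 0.64 with the GC content of the transcript, so its AT-rich transcripts were the lowest, and MyoCre replicate 4 had an r of -0.75, the opposite slope. Over 12497 genes these were 0.41 and -0.40. By Spearman's rho the values were 0.63 and -0.77 for the 76 genes and 0.62 and -0.62 for the 12497 genes, so that in K15-SKO replicate 3 the 76 genes were level with all genes. Genes lowest in K15-SKO replicate 3 had a median GC content of 48.3%, and those lowest in MyoCre replicate 4 had 57.5%. These are correlations across genes that share a library, and no test applies to them.

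The 26 coding genes with the least GC (39.6% to 47.4%) had a median log2 fold change of -0.21, the 25 in the middle -0.16 and the 25 with the most GC (52.7% to 60.6%) -0.09. This order rests on single libraries: without K15-SKO replicate 3 the medians were -0.05, -0.08 and -0.07 in the same order, and without MyoCre replicate 4 they were -0.19, -0.20 and -0.19. With each library's trend on GC content removed, an alternative chosen after seeing the data, the relative median of the 80 genes was -0.03 and Mrpl55 stayed at -0.45 relative to all genes (limma adjusted p = 0.0938), and 0 of the 80 passed.

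**Figure D5:**
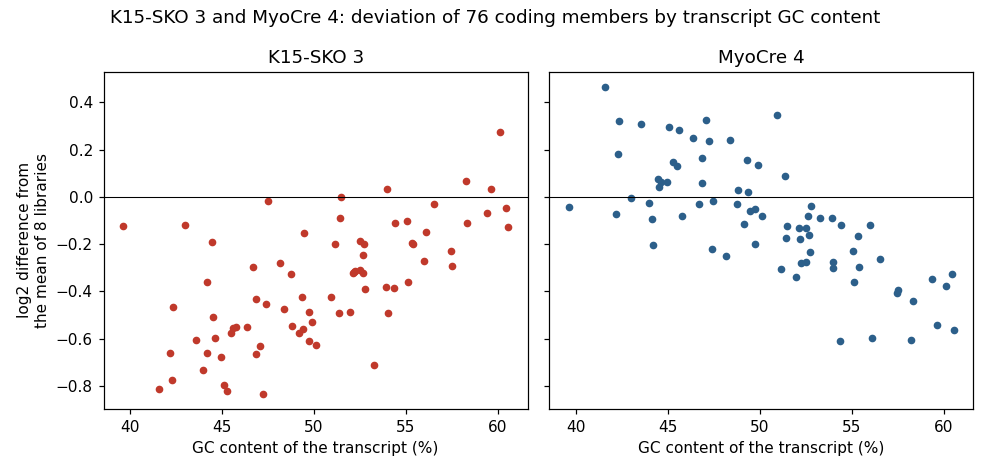
Log2 difference of each of the 76 coding genes from its mean over the 8 libraries, against the GC content of its transcript in percent, in K15-SKO 3 (left) and MyoCre 4 (right). The slopes are opposite, with a Pearson's r of 0.64 and -0.75 across genes.

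In the genome, mitoribosomal protein genes often share their start region with a gene on the other strand. Of the 76 coding genes, spread over 17 chromosomes, 33 (43.4%) had the start of a coding gene running the opposite way within 1000 bases, as did 16.7% of 10645 coding genes tested. The partners include other mitochondrial genes. Mrpl46 of the large and Mrps11 of the small subunit are such a pair, Mrpl36 is paired with the complex I gene Ndufs6, Mrpl43 with the mitochondrial DNA helicase gene Twnk, and Mrps12 with the mitochondrial seryl-tRNA synthetase gene Sars2. Mrpl46 had 14.8, 18.5, 13.5 and 12.3 FPKM in K15-SKO and 17.5, 20.1, 16.3 and 13.2 FPKM in MyoCre libraries, and its partner Mrps11 had 11.7, 14.1, 9.21 and 9.89 FPKM in K15-SKO and 13.7, 17.7, 12.5 and 9.21 FPKM in MyoCre libraries. The order of the libraries was nearly the same in both, and 23 of the 76 coding genes overlap a coding gene on the other strand, so reads may be shared.

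Nuclear respiratory factor 1 (NRF1) and GA-binding protein (GABPA, of the ETS family) are known regulators of mitochondrial genes, and Klf15 binds CACCC boxes. RefSeq promoters of GRCm38.p6, 250 bases before to 50 bases after the start, were matched for 67 of the 80 genes (73 windows). The ETS motif CCGGAAG, on either strand, was in 34.2% of these windows, in 17.6% of 10836 windows of genes tested and in 8.86% of all 32851 windows. The NRF1 motif, GCGCA and GCGC with any base between them, was in 17.8%, 10.3% and 4.603%, and the YY1 motif AAGATGG in 17.8%, 7.34% and 6.34%. The KLF motif CACCC was in 49.3% of the windows of these genes, in 63.2% of those of genes tested and in 57.5% of all. A match describes letters in a window and not a bound site.

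The highest expressed genes with a match inside the 100 bases before the start, and with no annotated exon there, show what these motifs look like. Capitals mark the match, read on the gene's strand, all on the plus strand: the ETS motif in Mrpl52 (chr14:54426809-54426908) and Mrpl34 (chr8:71464826-71464925), and the NRF1 motif in Mrpl45 (chr11:97315616-97315715).
Mrpl52: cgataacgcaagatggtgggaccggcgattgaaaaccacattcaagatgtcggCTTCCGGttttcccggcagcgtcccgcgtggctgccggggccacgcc
Mrpl34: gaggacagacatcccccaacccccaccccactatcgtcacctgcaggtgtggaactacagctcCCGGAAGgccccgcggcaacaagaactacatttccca
Mrpl45: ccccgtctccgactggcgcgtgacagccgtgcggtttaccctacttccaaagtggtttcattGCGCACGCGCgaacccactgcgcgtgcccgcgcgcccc

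Mrpl52 and Mrpl34 had relative log2 fold changes of 0.09 and 0.03, and Mrpl45 of -0.21. Among the lower genes described above, the window of Mrpl55 held CACCC 4 times, that of Mrps27 held the ETS and YY1 motifs and CACCC 2 times, and those of Mrpl47, Mrpl16 and Mrps5 held none of these 4 motifs. Mrps35 was not matched to a window.

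Other genes that serve the same ribosome had relative medians close to that of the members, though their FPKM levels differed. The 6 subunits with other names, such as Dap3, Ptcd3 and Chchd1, had a relative median of 0.00, and 0 of 6 passed. Dap3, a GTP-binding protein of the small subunit, had 17.7, 21.9, 11.5 and 15.2 FPKM in K15-SKO and 23.4, 22.4, 25.4 and 17.1 FPKM in MyoCre libraries (log2 fold change -0.43, limma adjusted p = 0.957). Ptcd3, a pentatricopeptide repeat protein of the small subunit, had 24.3, 24.1, 12.3 and 24.6 FPKM in K15-SKO and 23.6, 23.6, 26.5 and 26.3 FPKM in MyoCre libraries. Both had their lowest library in K15-SKO replicate 3.

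Of 24 assembly factors tested, some of which modify or fold the ribosomal RNA, 0 passed and all 24 were negative, with a relative median of -0.06. Mterf3, which acts in the assembly of the ribosome, averaged 10.1 ± 3.05 FPKM in K15-SKO and 12.9 ± 1.62 FPKM in MyoCre, and the methyltransferase gene Mrm1 4.32 ± 0.406 FPKM in K15-SKO and 5.44 ± 0.907 FPKM in MyoCre muscle (SD, n = 4 each). Of 16 translation factors 0 passed, with a relative median of -0.07. The initiation factor gene Mtif2 averaged 10.1 ± 3.33 FPKM in K15-SKO and 12.9 ± 1.06 FPKM in MyoCre, and the release factor gene Mtrf1 4.51 ± 1.39 FPKM in K15-SKO and 5.48 ± 0.382 FPKM in MyoCre.

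Of 22 mitochondrial aminoacyl-tRNA synthetases, which charge the transfer RNAs, 0 passed, with a relative median of 0.01. The leucyl-tRNA synthetase gene Lars2 had 7.10, 7.16, 14.95 and 3.31 FPKM in K15-SKO and 3.74, 4.57, 4.86 and 3.87 FPKM in MyoCre libraries. It was highest in K15-SKO replicate 3, where most mitoribosomal genes were lowest. The asparaginyl-tRNA synthetase gene Nars2 averaged 3.27 ± 1.02 FPKM in K15-SKO and 4.45 ± 0.863 FPKM in MyoCre muscle (SD, n = 4 each).

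Of 14 genes of mitochondrial DNA transcription and its regulators 0 passed, with a relative median of -0.05. Mterf2, which binds mitochondrial DNA, averaged 8.60 ± 2.41 FPKM in K15-SKO and 11.6 ± 1.14 FPKM in MyoCre, and the GA-binding protein gene Gabpa 11.95 ± 3.55 FPKM in K15-SKO and 14.2 ± 0.703 FPKM in MyoCre muscle (SD, n = 4 each). Cytosolic ribosomal protein genes, a comparison for a ribosome outside mitochondria, had a median level of 50.2 FPKM in K15-SKO and 55.9 FPKM in MyoCre muscle and a relative median of 0.00 (81 tested of 90). Some of the 90 are listed near 0, such as Rps6 (mean 0.070 FPKM) and Rpl24 (0.061 FPKM). Whether these are failed estimates was not tested, so the level of this list is uncertain. Nuclear respiratory subunits, with which mitochondrially made proteins assemble, had a median level of 286.3 FPKM in K15-SKO and 296.0 FPKM in MyoCre muscle and a relative median of 0.01 (80 tested). In each of these last lists 0 genes were called lower and 1 was called higher, Rpl13 and Cox4i1. Both are genes that every cell uses and are listed at 0 in all 4 MyoCre libraries, as is the muscle actin gene Acta1, so these zeros may be failed estimates and are not read as a difference in expression.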

How the data were processed

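The authors deposited 1 table of 24033 genes by 8 libraries. Its unit was not named, and the values were taken as FPKM, since the deposited numbers fit it and the submitters' processing notes name STAR, Cufflinks and Cuffdiff with mm10 and no versions. Neither the annotation release nor the strand setting is stated in the labels or notes. FPKM divides by length and total, so 1 abundant RNA lowers all other genes of its library. Genes with a mean of at least 1 (12535) were tested with limma 3.58.1 (R 4.3.3) on log2(FPKM + 0.5), trend and robust, K15-SKO minus MyoCre, genotype only, two-sided. Fold changes on this scale understate low genes. Named genes were also tested by exact permutation of 70 assignments of mean FPKM. Transcript models came from GENCODE M21 (23896 of 24033 IDs matched without version), copies from BLAST 2.17.0, tables from Python 3.11.15. The code was tested on simulated data. The labels do not say that replicates are separate animals, so p-values measure the spread between these libraries. Named genes were the 4 positive and the 4 negative with the smallest p, those without overlap, the 5 highest and the 5 lowest, the 3 with the widest spread, those whose symbol and structure differ and those at the limit of the rule. From each further list the 2 with the smallest p were named. Mrpl10, Mrpl11, Mrpl12, Mrpl17, Mrpl22, Mrpl24, Mrpl27, Mrpl34, Mrpl36, Mrpl43, Mrpl45, Mrpl46, Mrpl48, Mrpl52, Mrpl23-ps1, Mrps11 and Mrps12 were added for their role or place after their values were seen. Members and lists were chosen with earlier results of these data known.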

Additional observations from a re-analysis of the deposited data

Results flagged for a closer look

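In 4 of 80 groups of 4 libraries examined, 1 library lay apart from its group by Dixon's test at the 95% level, and chance flags about 1 group in 20, or 4 here. Mrps5 had 4.76 FPKM in K15-SKO replicate 3, against 7.72 to 7.96 FPKM in the other K15-SKO libraries. Ptcd3 had 12.3 FPKM in the same library, against 24.1 to 24.6 FPKM. Mrps36-ps1 had 22.7 FPKM in MyoCre replicate 3, against 15.4 FPKM in each other MyoCre library. Mrps30 had 19.1 FPKM in MyoCre replicate 4, against 23.5 to 24.2 FPKM.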

How the results depend on the processing

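None of the 80 genes passed under any alternative run. Genes called over all numbered 69, then 39 at a mean of at least 5, 157 with library weights, 12 (all lower) without genes listed at 0 in a genotype, and 59 to 80 with each library left out. The median of the 80 genes relative to all genes lay between -0.09 and 0.00. The large minus small difference was 0.0784 with library weights and -0.0165 to 0.0543 with each library left out. Relative values changed sign without a filter on the mean for Mrpl33 (-0.0306) and Mrps21 (-0.0264). They did so with library weights for Mrpl30 (0.0996), Mrpl54 (-0.00511), Mrpl19 (0.0170), Mrps36-ps1 (0.268) and Mrps36 (0.0775). With MyoCre replicate 2 and K15-SKO replicate 3 left out together, Mrpl30 (0.0646), Mrps36-ps1 (0.00222), Mrpl48-ps (0.0572) and Mrps18a (0.0302) changed sign, and with the GC trend removed Mrpl42 (0.0106) and Mrpl30 (0.0113). With each library left out, the range crossed 0 for Mrps21 (-0.0371 to 0.0932), Mrps36-ps2 (-0.296 to 0.0667), Mrps18a (-0.0693 to 0.0551), Mrpl33 (-0.0213 to 0.0681), Mrps26 (-0.00259 to 0.153), Mrpl30 (-0.0858 to 0.0532), Mrps25 (-0.265 to 0.00169), Mrps36-ps1 (-0.368 to 0.0512), Mrps36 (-0.223 to 0.0406), Mrpl42 (-0.0480 to 0.00940), Mrpl28 (-0.0122 to 0.320) and Mrpl38 (-0.0228 to 0.270). The cause was not tested. The labels do not say what the replicate numbers mark, and they were not treated as pairs: same-numbered libraries correlated at 0.10, 0.23, 0.00 and 0.28, and 5 of 8 libraries correlated best with their own number. With the replicate block, 78 genes were called, 0 of them among the 80, which left every call named here as it was. With 4 libraries a genotype, a log2 fold change of -0.55 (Mrpl55) did not pass in the main fit (limma adjusted p = 0.718). Klf15, at -1.28, passed with a limma adjusted p of 0.0315. Changes smaller than that of Klf15 may therefore have gone uncalled.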
